A study of Mus musculus with 15 samples.

Results

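The p38 mitogen-activated protein kinases, the kinases that switch them on and the kinases they switch on were followed in primary mouse chondrocytes treated with 4 inhibitors. The set held 10 genes: the p38 isoforms Mapk14, Mapk11, Mapk12 and Mapk13, the upstream kinases Map2k3 and Map2k6, and the downstream kinases Mapkapk2, Mapkapk3, Rps6ka4 and Rps6ka5. Members were found by gene symbol in the annotation of the array, which gave 20 probe sets of 9 of the genes, out of 45037 probe sets and 18193 named genes in all. None of the 20 was annotated to another gene as well, and no expression of Rps6ka4 was analysed here. Cartilage of the hind limbs of CD1 embryos at embryonic day 15.5 was dissected, and the cells were grown as monolayers, so that every array came from a primary culture of unsorted CD1 cells. Cultures received LY294002, which blocks the lipid kinase PI3K, UO126, which blocks MEK upstream of ERK, SB202190, which binds the p38α and p38β kinases, Trichostatin A, which blocks histone deacetylases, or the vehicle DMSO, with 3 arrays per treatment. The text deposited with the series lists SB202190 among inhibitors of MEK and ERK. LY294002 was used at 10 µM by the study's methods, the doses of the other inhibitors are not given in the sources used here, and the treatment lasted 24 h by the sample labels and 2 h by the text of the series. Arrays of a treatment are described as biological replicates.

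In this cascade, MKK3 (Map2k3) and MKK6 (Map2k6) phosphorylate p38, the p38 kinases phosphorylate MK2 (Mapkapk2), MK3 (Mapkapk3) and the mitogen- and stress-activated kinases MSK1 (Rps6ka5) and MSK2 (Rps6ka4), and the last of these kinases act on RNA-binding proteins, small heat shock proteins, CREB family factors and histone H3. MSK1 and MSK2 are also phosphorylated by ERK. In cartilage the pathway is known for its part in chondrocyte hypertrophy and in the response to mechanical and inflammatory stress. Arrays read transcript levels, so none of the values below is a measure of kinase activity.

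The values were log2 signals normalised by the authors, with array medians between 6.90 and 7.00 and correlations of 0.993 to 0.998 between arrays of a treatment. The chondrocyte markers were strongly detected in every group, with a mean log2 signal of Col2a1 between 14.02 in Trichostatin A and 14.43 in LY294002, against 14.32 in DMSO. Skeletal muscle markers were also detected, as were fibroblast markers, with Col1a1 at a mean of 13.59 in DMSO. Most leukocyte markers were detected too, with Lyz2 at 9.05 and Csf1r at 8.76 in DMSO, as was the endothelial Kdr at 7.99. Of the listed markers with a probe set, only the endothelial Pecam1 and Cdh5, the leukocyte Ptprc and the erythroid Hba-a1 stayed under a signal of 50 in every group. That signal is a log2 of 5.64, under the array medians, so passing it does not show that cells of a type were present. The erythroid Alas2, the endothelial Tek and the keratinocyte Krt15, for example, averaged only 5.88, 5.67 and 6.15 in DMSO. In Trichostatin A, 13 of 13 chondrocyte markers were lower, with summed signals of 35420 to 46466, against 67556 to 72401 in DMSO, and 10 of the 11 tested muscle markers were lower, with 1490 to 1629, against 2723 to 6007 in DMSO. On RNA from a whole culture, fewer cells of a type and less RNA per cell cannot be told apart.

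Of the 20 member probe sets, 19 had a mean signal of at least 50 in a treatment and were tested with limma, a linear model over all 15 arrays with p-values adjusted over all probe sets tested. A probe set was called at an adjusted p under 0.05. The model had no term for the replicate number, and calls made with such a replicate block are named as such. All 4 comparisons share the DMSO arrays. Trichostatin A up-regulated 12 member probe sets of 8 genes and lowered none, in a comparison that called 23.0% of all tested probe sets higher and 20.6% lower. LY294002 up-regulated 2, both of Rps6ka5, where 6.83% of all were called higher and 1.78% lower. SB202190 up-regulated 1, of Map2k6, where 1.23% were called higher and 0.706% lower. UO126 called none of the 19 with limma, where 1.14% of all were called higher and 0.792% lower. The only member with an unadjusted p under 0.05 there was Mapk13, which averaged 7.84 in UO126 and 8.02 in DMSO (unadjusted p = 0.0457, adjusted p = 0.490).

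The direction and size of the differences varied between inhibitors. The median difference of the members from DMSO was 0.52 on the log2 scale in Trichostatin A, against -0.06 over all tested probe sets. It was -0.08 in LY294002, -0.04 in UO126 and 0.07 in SB202190, against -0.02, 0.00 and -0.01 over all. By the study's threshold of 1.4-fold, with no test, 10 members changed in Trichostatin A, 2 in LY294002, 0 in UO126 and 2 in SB202190. Of all tested probe sets, 25.0%, 3.88%, 1.94% and 1.76% did. The study applied this threshold to values from another normalisation, after its own signal filter, so these counts are not comparable with its own. All arrays of the inhibitor lay beyond all DMSO arrays for 13 members in Trichostatin A, 6 in LY294002, 3 in UO126 and 4 in SB202190, where 49.1%, 23.7%, 12.5% and 17.1% of all tested probe sets did so. Any difference among the 5 treatments was called for 12 of the 19 by limma's F test, which called 44.5% of all probe sets.

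**Figure D1:**
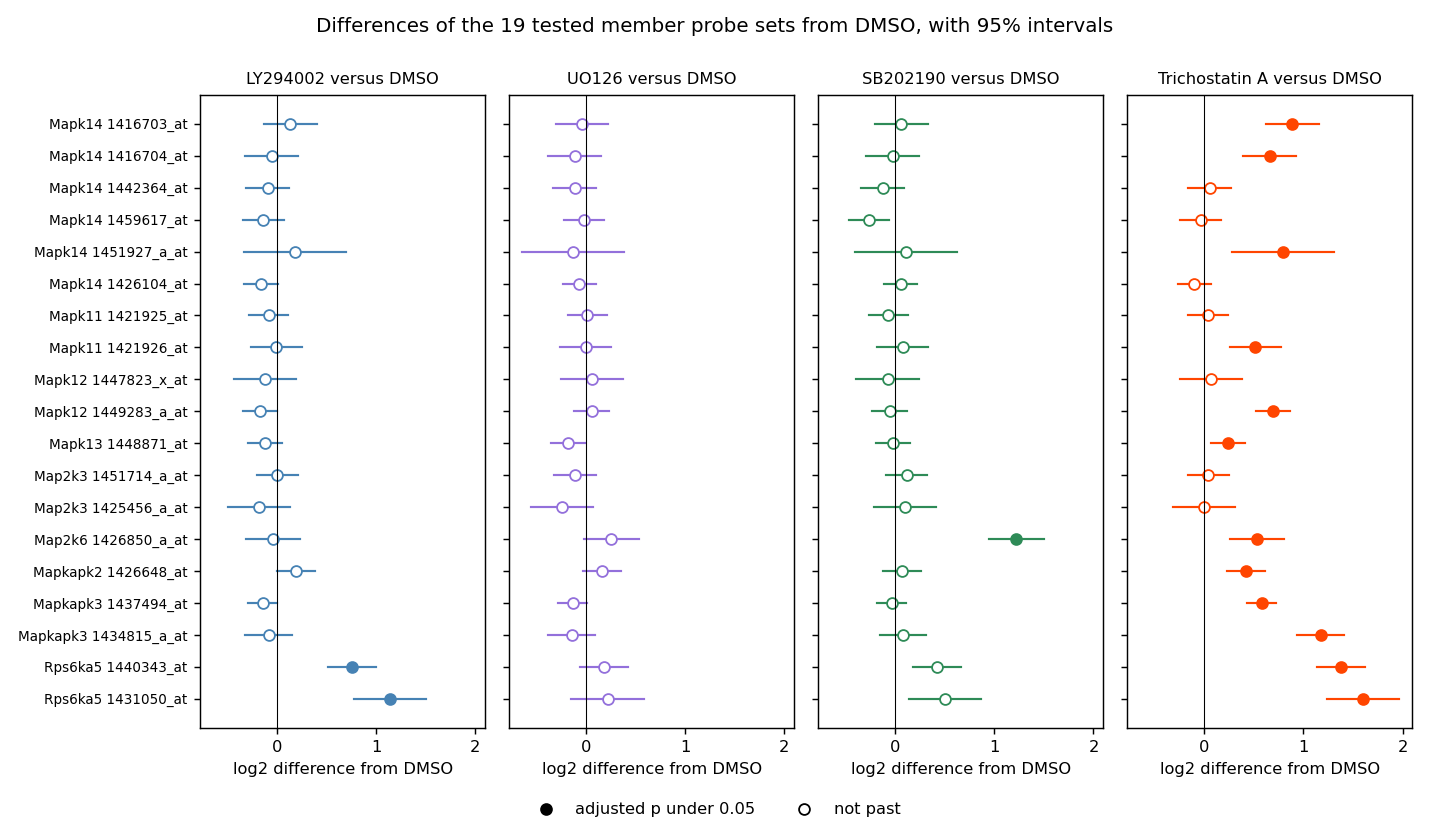
Log2 difference from DMSO (x axis) of each of the 19 tested member probe sets (rows) in the 4 inhibitors (panels); lines are 95% confidence intervals of limma and filled points have an adjusted p under 0.05. Filled points are 2 of Rps6ka5 in LY294002, 1 of Map2k6 in SB202190 and 12 in Trichostatin A, and UO126 has none.

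Rps6ka5 was called higher in LY294002 and Trichostatin A, Map2k6 was called higher in SB202190 and Trichostatin A, and Mapk14 encodes p38α. Promoter sequences are shown for these 3 members, on which the results turn. Each runs from 250 bases before to 50 after a transcription start of RefSeq on GRCm38.p6, and which start the probe sets read was not determined. Capitals mark every match, on either strand, to the GC box GGGCGG, the CCAAT box CCAAT, the CRE TGACGTCA, the AP-1 motif TGANTCA, the FOXO motif GTAAACA or the MEF2 motif, and neighbouring matches can overlap, as in Rps6ka5.
Rps6ka5, chr12:100725071-100725370, minus strand: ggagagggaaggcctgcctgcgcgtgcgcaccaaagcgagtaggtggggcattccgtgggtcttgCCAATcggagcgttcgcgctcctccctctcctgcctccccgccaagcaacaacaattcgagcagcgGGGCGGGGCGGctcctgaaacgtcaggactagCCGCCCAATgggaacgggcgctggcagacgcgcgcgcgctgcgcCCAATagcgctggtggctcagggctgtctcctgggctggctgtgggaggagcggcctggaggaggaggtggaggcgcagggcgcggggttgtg
Map2k6, chr11:110398852-110399151, plus strand: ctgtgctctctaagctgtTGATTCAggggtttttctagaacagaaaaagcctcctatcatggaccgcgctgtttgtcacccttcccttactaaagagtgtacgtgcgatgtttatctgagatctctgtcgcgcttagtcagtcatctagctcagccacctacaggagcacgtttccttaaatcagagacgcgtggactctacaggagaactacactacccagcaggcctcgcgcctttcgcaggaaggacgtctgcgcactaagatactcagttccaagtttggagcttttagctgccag
Mapk14, chr17:28691092-28691391, plus strand: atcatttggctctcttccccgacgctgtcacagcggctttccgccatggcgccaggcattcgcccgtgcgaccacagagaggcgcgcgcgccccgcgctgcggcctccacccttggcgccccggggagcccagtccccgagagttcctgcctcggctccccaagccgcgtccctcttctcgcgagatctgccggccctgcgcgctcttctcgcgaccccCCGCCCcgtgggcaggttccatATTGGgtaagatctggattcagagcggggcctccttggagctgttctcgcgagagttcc
Rps6ka5 held 3 GC boxes and 3 CCAAT boxes, the Mapk14 start shown held 1 of each, and the Map2k6 start shown held 1 AP-1 motif and none of the others. A second start of Mapk14 held no match to any of the motifs, and a second start of Map2k6 held 1 GC box. The 10 genes had 14 such promoters, of which 9 held a GC box, 3 a CCAAT box and 2 an AP-1 motif. Of all 32851 promoters of this length, 35.7% held the GC box, 37.4% the CCAAT box and 7.81% the AP-1 motif. The CRE, FOXO and MEF2 motifs, present in 1.79%, 3.65% and 0.557% of all promoters, were in none of the 14. Matches are descriptions of these letters.

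Rps6ka5 encodes MSK1, a nuclear kinase that phosphorylates CREB and histone H3. Of the members it had the widest spread of treatment means, 1.60 on the log2 scale on 1431050_at. With probe set 1431050_at, log2 signals were 7.50, 7.30 and 7.01 in LY294002, 6.52, 6.05 and 6.48 in UO126, 6.78, 6.58 and 6.55 in SB202190, and 7.55, 7.58 and 8.06 in Trichostatin A, against 6.42, 5.83 and 6.13 in DMSO. With 1440343_at they were 7.11, 7.12 and 7.29 in LY294002, 6.77, 6.43 and 6.61 in UO126, 6.91, 6.63 and 6.98 in SB202190, and 7.88, 7.63 and 7.88 in Trichostatin A, against 6.36, 6.33 and 6.56 in DMSO. On either probe set every LY294002, SB202190 and Trichostatin A array lay above every DMSO array, and the UO126 and DMSO arrays overlapped. The probe sets moved together, with a Pearson correlation of 0.923 over the 15 arrays, treatment differences included. The third probe set, 1439004_at, stayed between 4.56 and 4.98 on all arrays, under the signal minimum, and was not tested.

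Trichostatin A up-regulated Rps6ka5 by 3.04-fold on 1431050_at (log2 difference 1.60, SE 0.173, limma adjusted p = 9.3e-07) and by 2.60-fold on 1440343_at (1.38, SE 0.114, adjusted p = 3.78e-08). LY294002 up-regulated it by 2.21-fold and 1.69-fold (adjusted p = 0.00102 and 0.000959). The DMSO means under these folds, 6.13 on 1431050_at and 6.42 on 1440343_at, were low, below the array medians of 6.90 to 7.00. Chondrocyte markers moved as well in LY294002, where 4 of 13 were higher and their summed signal was 87557 to 88564, against 67556 to 72401 in DMSO; their part in the result was not tested. Without replicate 2 of every treatment, 1431050_at was 0.98 higher in LY294002 on the log2 scale with an adjusted p of 0.0638.

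In SB202190, Rps6ka5 was 1.42-fold and 1.34-fold above DMSO, which did not pass (adjusted p = 0.186 on 1431050_at and 0.0703 on 1440343_at). With the replicate number as a block, 3 members were called in SB202190 instead of 1, and the added ones were these probe sets of Rps6ka5 (adjusted p = 0.0482 and 0.00489). In UO126 the 95% interval of the log2 difference ran from -0.15 to 0.59 on 1431050_at and from -0.05 to 0.43 on 1440343_at. The means of either probe set fell in the order Trichostatin A, LY294002, SB202190, UO126 and DMSO. Trichostatin A and LY294002 differed on 1440343_at by -0.62 (LY294002 minus Trichostatin A, adjusted p = 0.000255). On 1431050_at that difference was -0.46 (adjusted p = 0.0434) and was lost without LY294002 replicate 2 or 3 or Trichostatin A replicate 3 (adjusted p = 0.0807, 0.183 and 0.228). LY294002 exceeded SB202190 on 1431050_at by 0.64 (adjusted p = 0.0462), a call lost when any 1 of 5 of the 6 arrays compared was left out, all but LY294002 replicate 3 (adjusted p = 0.0835 to 0.203). It did not pass on 1440343_at (0.33, adjusted p = 0.122, and 0.0142 with the replicate block). SB202190 and UO126 did not differ past the threshold, at -0.29 and -0.24 for UO126 minus SB202190 (adjusted p = 0.537 and 0.356).

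**Figure D2:**
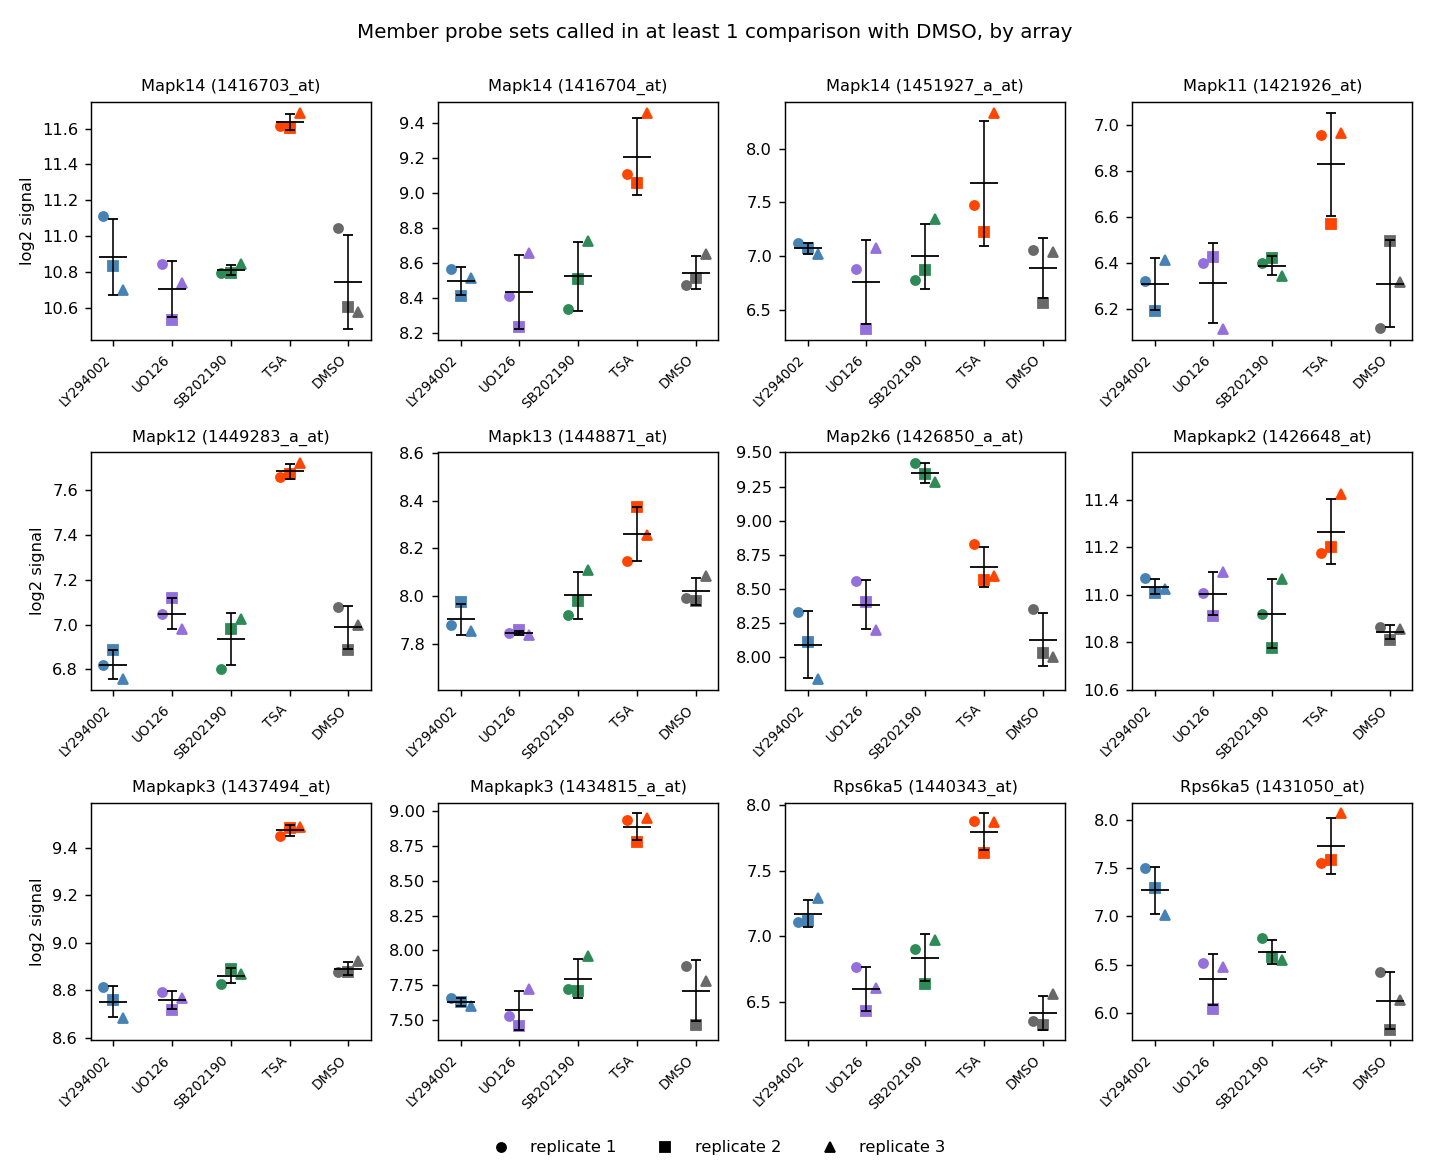
Log2 signal (y axis) of the 12 member probe sets called against DMSO in at least 1 inhibitor, for each array by treatment (x axis; TSA, Trichostatin A); symbols are replicates, horizontal lines the means and bars 1 SD (n = 3 each), and each panel has its own y range. Map2k6 is highest in SB202190, at 9.28 to 9.42, while the other panels peak in Trichostatin A, and the 2 Rps6ka5 panels also have raised LY294002 arrays.

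Map2k6 encodes MKK6, a kinase that activates p38. It was the only member called in SB202190 without the replicate block. Probe set 1426850_a_at read 8.33, 8.11 and 7.84 in LY294002, 8.56, 8.40 and 8.19 in UO126, 9.42, 9.34 and 9.28 in SB202190, and 8.83, 8.56 and 8.60 in Trichostatin A, against 8.35, 8.03 and 8.00 in DMSO. The SB202190 arrays were above all 12 other arrays. Map2k6 was 2.33-fold higher in SB202190 than in DMSO (log2 difference 1.22, SE 0.130, limma adjusted p = 0.000105) and 1.45-fold higher in Trichostatin A (0.53, SE 0.130, adjusted p = 0.00295). Without replicate 2 of every treatment, the differences in SB202190 and Trichostatin A were 1.18 and 0.54, with adjusted p-values of 0.0527 and 0.0534.

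The means of Map2k6 fell in the order SB202190, Trichostatin A, UO126, DMSO and LY294002. Trichostatin A was 1.61-fold below SB202190 (log2 difference -0.69, adjusted p = 0.000391), and UO126 and LY294002 were 1.95-fold and 2.39-fold below it (-0.97 and -1.26, adjusted p = 0.000194 and 3.84e-05). Between Trichostatin A and UO126 (0.28, adjusted p = 0.0980), UO126 and DMSO (0.26, adjusted p = 0.566) and LY294002 and DMSO (-0.04, adjusted p = 0.882), neighbours in the order did not differ past the threshold. Map2k6 is also known in skeletal muscle. The summed muscle signal was 4169 to 7119 in SB202190, against 2723 to 6007 in DMSO, with 0 of 12 muscle markers called by limma, 2 higher and 1 lower at an unadjusted p under 0.05. In Trichostatin A the muscle signal was 1490 to 1629. The part of muscle cells in the Map2k6 values was not tested. Chondrocyte markers in SB202190 summed to 61123 to 69327, against 67556 to 72401 in DMSO, with 0 of 13 called by limma and 3 lower at an unadjusted p under 0.05.

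Map2k3, the gene of MKK3, was not called in any comparison with DMSO. Probe set 1451714_a_at read 11.03, 10.78 and 10.89 in LY294002, 10.84, 10.64 and 10.87 in UO126, 10.91, 10.95 and 11.17 in SB202190, and 10.95, 10.83 and 11.04 in Trichostatin A, against 10.93, 10.80 and 10.95 in DMSO. The arrays of every inhibitor overlapped those of DMSO. The 95% interval of its log2 difference was -0.16 to 0.26 in Trichostatin A, -0.09 to 0.33 in SB202190, -0.32 to 0.10 in UO126 and -0.20 to 0.22 in LY294002. With 1425456_a_at, whose differences ranged from -0.23 in UO126 to 0.10 in SB202190, the intervals reached -0.55 and 0.42. This probe set differed between kinase inhibitors with the replicate block, as given with the direct tests.

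The p38 isoforms were up-regulated in Trichostatin A and were not called in the kinase inhibitors. Mapk14, the gene of p38α, the isoform known in most tissues, has 6 probe sets on the array, and 3 were up-regulated. On 1416703_at the arrays read 11.11, 10.83 and 10.70 in LY294002, 10.85, 10.54 and 10.74 in UO126, 10.79, 10.80 and 10.85 in SB202190, and 11.62, 11.60 and 11.69 in Trichostatin A, against 11.05, 10.61 and 10.58 in DMSO. All Trichostatin A arrays lay above the rest, and the kinase inhibitors overlapped DMSO. The increase was 1.85-fold on 1416703_at (log2 difference 0.89, SE 0.125, limma adjusted p = 1.75e-05).

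The second Mapk14 probe set, 1416704_at, read 9.11, 9.06 and 9.46 in Trichostatin A, against 8.47, 8.51 and 8.65 in DMSO, an increase of 1.58-fold (adjusted p = 0.000384). On 1451927_a_at the arrays read 7.48, 7.22 and 8.34 in Trichostatin A, against 7.05, 6.56 and 7.04 in DMSO. That increase of 1.73-fold (adjusted p = 0.0135) depended on the highest Trichostatin A array and the lowest DMSO array: it was 0.47 on the log2 scale without Trichostatin A replicate 3 (adjusted p = 0.0940) and 0.63 without DMSO replicate 2 (adjusted p = 0.0722). The probe sets 1442364_at, 1459617_at and 1426104_at were not called, with log2 differences of 0.06, -0.03 and -0.09 in Trichostatin A. Over the 15 arrays the 3 called probe sets correlated at 0.777 to 0.888 with each other. Correlations between a called and an uncalled one ran from -0.304 to 0.446. Of the uncalled ones, 1426104_at lay near the signal minimum, with treatment means of 5.64 to 5.86 against a log2 minimum of 5.64. With 1426104_at set aside, these correlations ran from -0.154 to 0.446, so the better detected probe sets of Mapk14 also disagreed. Which transcripts each of them reads was not determined. In SB202190, 1459617_at read 7.24, 7.38 and 7.44, against 7.45, 7.73 and 7.65 in DMSO, with no overlap but an adjusted p of 0.241.

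Mapk12, the gene of p38γ, which is known from skeletal muscle, gave 7.66, 7.67 and 7.72 on 1449283_a_at in Trichostatin A, against 7.08, 6.89 and 7.00 in DMSO. LY294002 arrays read 6.82, 6.89 and 6.76, UO126 arrays 7.05, 7.12 and 6.98, and SB202190 arrays 6.80, 6.98 and 7.02. The Trichostatin A arrays were close together and above all others, by 1.62-fold over DMSO (log2 difference 0.70, SE 0.082, adjusted p = 2.66e-06). Of the tested muscle markers, 10 of 11 were lower in Trichostatin A, and their part in the result was not tested. The second probe set of Mapk12, 1447823_x_at, differed by 0.07 in Trichostatin A with an interval of -0.24 to 0.39, and correlated with the other at 0.252 over the arrays.

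Mapk11, the gene of p38β, read 6.95, 6.57 and 6.96 on 1421926_at in Trichostatin A, against 6.12, 6.50 and 6.32 in DMSO. It was 1.43-fold higher (adjusted p = 0.00219), with the lowest Trichostatin A array close to the highest DMSO array, and without replicate 1 of every treatment the adjusted p was 0.0689. Its other probe set, 1421925_at, differed by 0.04, with an interval of -0.16 to 0.24. Mapk13, the gene of p38δ, read 8.15, 8.37 and 8.26 in Trichostatin A, against 7.99, 7.98 and 8.09 in DMSO. This was the smallest increase called among members, 1.18-fold (adjusted p = 0.0232), and it was lost without DMSO replicate 1 or 2 or Trichostatin A replicate 2 (adjusted p = 0.0552, 0.0732 and 0.0996).

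Mapkapk2 and Mapkapk3 encode MK2 and MK3, the p38-activated kinases that act on tristetraprolin and the heat shock protein HSP27. Mapkapk3 gave the smallest p of all members in the F test. On 1434815_a_at it read 7.66, 7.63 and 7.60 in LY294002, 7.53, 7.46 and 7.72 in UO126, 7.73, 7.71 and 7.96 in SB202190, and 8.94, 8.78 and 8.95 in Trichostatin A, against 7.89, 7.46 and 7.78 in DMSO. On 1437494_at it read 8.81, 8.76 and 8.68 in LY294002, 8.80, 8.72 and 8.77 in UO126, 8.83, 8.89 and 8.87 in SB202190, and 9.45, 9.48 and 9.49 in Trichostatin A, against 8.88, 8.88 and 8.93 in DMSO. Both probe sets set the Trichostatin A arrays apart from all others, and they correlated at 0.965 over the 15 arrays. The increase in Trichostatin A was 2.26-fold on 1434815_a_at (log2 difference 1.18, SE 0.110, adjusted p = 1.72e-07) and 1.50-fold on 1437494_at (0.58, SE 0.069, adjusted p = 2.66e-06), so the probe sets agreed in direction and not in size. On 1437494_at all LY294002 and UO126 arrays lay below DMSO, by -0.14 and -0.13 (adjusted p = 0.228 and 0.589).

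Mapkapk2 read 11.07, 11.01 and 11.02 in LY294002, 11.01, 10.91 and 11.09 in UO126, 10.92, 10.77 and 11.06 in SB202190, and 11.17, 11.20 and 11.42 in Trichostatin A, against 10.87, 10.81 and 10.86 in DMSO. LY294002, UO126 and Trichostatin A arrays lay above the DMSO arrays, and only in Trichostatin A did the difference pass (1.34-fold, log2 difference 0.42, SE 0.090, adjusted p = 0.00104). In LY294002 it was 0.19 (adjusted p = 0.209) and in UO126 0.16 (adjusted p = 0.645). Tested directly, LY294002 and Trichostatin A did not differ past the threshold (-0.23, adjusted p = 0.0509), and they did under 3 alternatives and without Trichostatin A replicate 1 (adjusted p = 0.0170 to 0.0430).

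The 5 named genes whose log2 profile over the 15 arrays was most like that of Mapkapk3 on 1434815_a_at, of 16099 genes searched, were Asap1 (Pearson r = 0.989), Kank3 (0.988), Lrrc28 (0.987), Clcn3 (0.985) and Herc3 (0.985). The arrays share their treatments, and Trichostatin A is the step in each profile. Mean log2 signals were 10.41 in Trichostatin A and 9.76 in DMSO for Asap1, 8.88 in Trichostatin A and 6.41 in DMSO for Kank3, and 9.98 in Trichostatin A and 7.40 in DMSO for Herc3.

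**Figure D3:**
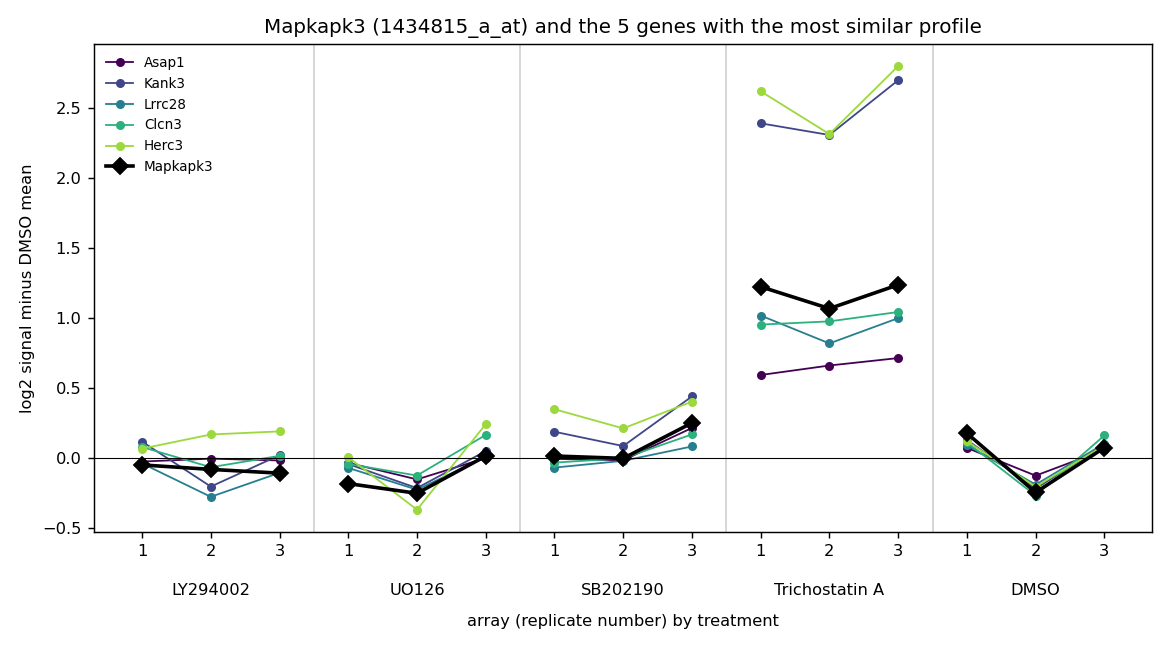
Log2 signal minus the DMSO mean (y axis) of Mapkapk3 (1434815_a_at, diamonds) and the 5 genes with the most similar profile (circles) on each of the 15 arrays (x axis). All 6 lie closer to 0 in the kinase inhibitors and DMSO and are raised on every Trichostatin A array, Kank3 and Herc3 the most and Asap1 the least.

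Direct tests between inhibitors, over 6 pairs, asked whether the responses themselves differed, and each adjusted p was taken over all probe sets of its pair. They made 38 calls of member probe sets. LY294002 against Trichostatin A gave 10 members lower in LY294002 and none higher, where 40.0% of all probe sets were called in either direction. Trichostatin A against UO126 gave 11 higher and none lower, where 42.6% were called, and Trichostatin A against SB202190 gave 11 higher and 1 lower, Map2k6, where 38.3% were called. Without the replicate block, the calls between kinase inhibitors were of Rps6ka5 and Map2k6. The block added Map2k3 on 1425456_a_at, lower by -0.34 in UO126 and by -0.28 in LY294002 than in SB202190 (adjusted p = 0.00612 and 0.0240), Map2k6, lower by -0.29 in LY294002 than in UO126 (adjusted p = 0.0207), and the second probe set of Rps6ka5 in LY294002 against SB202190. LY294002 against UO126 gave the 2 probe sets of Rps6ka5 higher, where 5.64% were called, by 1.89-fold on 1431050_at and 1.49-fold on 1440343_at (adjusted p = 0.00461 and 0.00681), and neither passed without replicate 2 of every treatment (adjusted p = 0.145 and 0.0992). LY294002 against SB202190 gave Rps6ka5 higher and Map2k6 lower, where 4.60% were called, and UO126 against SB202190 gave Map2k6 lower, where 5.22% were called.

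Around the members, 75 further genes of the pathway and of the neighbouring ERK, JNK and RSK kinases were listed by role, and 69 had a probe set of their own. Trichostatin A raised 31 and lowered 8 of the 69, LY294002 raised 9, SB202190 raised 2 and UO126 raised 1, and of all tested probe sets 23.0% were called higher and 20.6% lower in Trichostatin A, 6.83% higher in LY294002, 1.23% in SB202190 and 1.14% in UO126. The counts by role in Trichostatin A stand against the same 23.0% and 20.6%. These shares are over all tested probe sets, whereas each listed gene is its brightest unshared one, so the sets compared are unlike. The kinase inhibitors lowered none by limma. At an unadjusted p under 0.05, LY294002 lowered 2, SB202190 3 and UO126 3. Median log2 differences were 0.25 in Trichostatin A, 0.18 in LY294002, 0.06 in SB202190 and 0.02 in UO126, against -0.06, -0.02, -0.01 and 0.00 over all tested probe sets. With the replicate block, LY294002 had 23 calls, SB202190 8 and UO126 4. Without replicate 2 of every treatment the counts were 1 in LY294002, 0 in SB202190 and 0 in UO126. Leaving out DMSO replicate 1 gave 21 in LY294002, 4 in SB202190 and 2 in UO126. The LY294002 count was 3 without DMSO replicate 2 or 3, 2 without LY294002 replicate 1 and 5 without LY294002 replicate 2. The UO126 count was 0 without DMSO replicate 3 or UO126 replicate 1, and 2 without UO126 replicate 2.

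Of the upstream kinases and adaptors, 9 of 21 were higher and 3 lower in Trichostatin A. Mapk8ip2, a scaffold of JNK and p38 modules, was 1.53 higher on the log2 scale (SE 0.096, adjusted p = 1.4e-09). Taok3 and Tab3, a kinase of the MAP3K tier and a TAK1-binding adaptor, were 1.19 and 1.10 higher (adjusted p = 1.25e-05 and 5.7e-06). Gadd45a, a stress-induced activator of MAP3K4 named here after its values were seen, was higher in 3 inhibitors, by 0.78 in LY294002, 0.87 in SB202190 and 0.89 in Trichostatin A (adjusted p = 0.000918, 0.000724 and 7.41e-06). Its log2 difference in UO126 was -0.20 (adjusted p = 0.665). Without replicate 2 of every treatment the LY294002 and SB202190 calls of Gadd45a were lost (adjusted p = 0.0593 and 0.0985).

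All 4 of the other listed kinases downstream of p38 or ERK were called in Trichostatin A, 3 higher and 1 lower. Mknk2 and Mknk1, which phosphorylate the initiation factor eIF4E, were 1.58 and 1.03 higher (adjusted p = 2.41e-09 and 1.89e-07), and Eef2k, which phosphorylates elongation factor 2 and is known to be inhibited by MAPK signalling, was lower by -1.90 (adjusted p = 5.46e-11). Mknk2 was also higher in SB202190 (0.62, adjusted p = 0.00444) and in LY294002 (0.48, adjusted p = 0.00905). Mknk1 was 0.35 higher in LY294002 (adjusted p = 0.0359), a call lost without DMSO replicate 2 or 3 or LY294002 replicate 1 or 2 (adjusted p = 0.0516 to 0.182). The LY294002 call of Mknk2 was lost without DMSO replicate 3 or LY294002 replicate 1 (adjusted p = 0.0551 and 0.0525), and its SB202190 call was lost without replicate 2 or 3 of every treatment.

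The substrates of MK2 and MK3 held the largest increase and the largest decrease of the lists. Hspb1, the gene of HSP27, averaged 13.51 in Trichostatin A and 10.64 in DMSO (log2 difference 2.87, SE 0.084, adjusted p = 2.19e-13), and Lsp1, a leukocyte-specific actin-binding protein, averaged 7.39 in Trichostatin A and 9.63 in DMSO (-2.25, SE 0.098, adjusted p = 2.1e-11). Macrophage and leukocyte markers moved in Trichostatin A as well, 5 of the 8 tested lower and 1, Cd68, higher. Cd68 averaged 9.76 in Trichostatin A and 7.54 in DMSO, and Lyz2, among the lower ones, averaged 7.64 and 9.05. These opposite changes lay within a summed signal of 1970 to 2096, against 1841 to 2219 in DMSO. The similar sums therefore do not show that the markers held steady. The part of these markers in the result was not tested. Hspb1 was the only pathway gene called in UO126, 0.42 higher (adjusted p = 0.0117), a call lost without DMSO replicate 3 or UO126 replicate 1 (adjusted p = 0.0685 and 0.0531). Zfp36l1, an RNA-binding protein that promotes mRNA decay, was 0.58 higher in Trichostatin A (adjusted p = 0.0238), a call lost without DMSO replicate 3 or Trichostatin A replicate 1 or 2 (adjusted p = 0.134, 0.0988 and 0.0541). In SB202190 Lsp1 was not called, and with the replicate block it was, at -0.37 (adjusted p = 0.0247). In all, 2 of these 8 substrates were higher and 2 lower in Trichostatin A.

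Of the nuclear substrates, 4 of 12 were higher and 1 lower in Trichostatin A. The transcription factors Atf2 and Mef2d were 0.61 and 0.58 higher (adjusted p = 0.00283 and 1.45e-05), and the ETS factor Elk4 was lower by -0.43 (adjusted p = 0.00294). Without replicate 3 of every treatment, the call of Atf2 was lost (adjusted p = 0.120). Mef2d was called in LY294002 too (0.29, adjusted p = 0.0338), a call lost without DMSO replicate 2 or 3 or LY294002 replicate 1 or 3 (adjusted p = 0.0726 to 0.149).

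Phosphatases that switch p38 off were raised in Trichostatin A in 5 of 7 cases. Dusp1, which removes phosphate from p38 and JNK, was 2.12 higher (SE 0.309, adjusted p = 2.57e-05), Dusp10 was 1.0 higher (adjusted p = 1.19e-06) and Dusp16 was 0.84 higher (adjusted p = 8.57e-06). Dusp1 was also 1.37 higher in LY294002 (adjusted p = 0.0117), which no longer passed when LY294002 replicate 1 or 2 or DMSO replicate 2 was left out (adjusted p = 0.0651, 0.0535 and 0.0534). Early genes that need MSK1 and MSK2 in other cells were raised in 5 of 8 cases in Trichostatin A. Among them were Atf3, by 2.21 (SE 0.208, adjusted p = 1.88e-07), and Nr4a1, by 1.78 (SE 0.485, adjusted p = 0.00651). Without replicate 1 or 2 of every treatment, the Trichostatin A call of Nr4a1 was lost (adjusted p = 0.125 and 0.0549). The call of Fos there (1.85, SE 0.719, adjusted p = 0.0464) was lost when any 1 of the DMSO arrays, or Trichostatin A replicate 1 or 2, was left out (adjusted p = 0.0619 to 0.145). Nr4a2, named after its values were seen, was the early gene called in LY294002, at 0.74 higher (adjusted p = 0.000580). With the replicate block Fos and Nr4a1 were called in LY294002 too, at 1.42 and 1.53 (adjusted p = 0.00229 and 0.00201).

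Of 9 kinases of the ERK, JNK and RSK branches, 3 were higher and 1 lower in Trichostatin A, and none was called by limma in another inhibitor, where at an unadjusted p under 0.05 LY294002 raised 1 and UO126 and SB202190 changed 0. Map2k1, the gene of MEK1 and a target of UO126, was 0.87 higher in Trichostatin A (adjusted p = 4.17e-06) and differed by -0.03 in UO126 (adjusted p = 0.990). Mapk8, the gene of JNK1, was 0.37 higher in Trichostatin A (adjusted p = 0.00339), with 0.30 in LY294002 (adjusted p = 0.0528, and 0.0137 with the replicate block). Its Trichostatin A call was lost without replicate 3 of every treatment (adjusted p = 0.0677). Rps6ka6, the gene of RSK4, was 0.49 higher in Trichostatin A (adjusted p = 0.0127), a call lost without DMSO replicate 2 or Trichostatin A replicate 3 (adjusted p = 0.0816 and 0.0545).

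**Figure D4:**
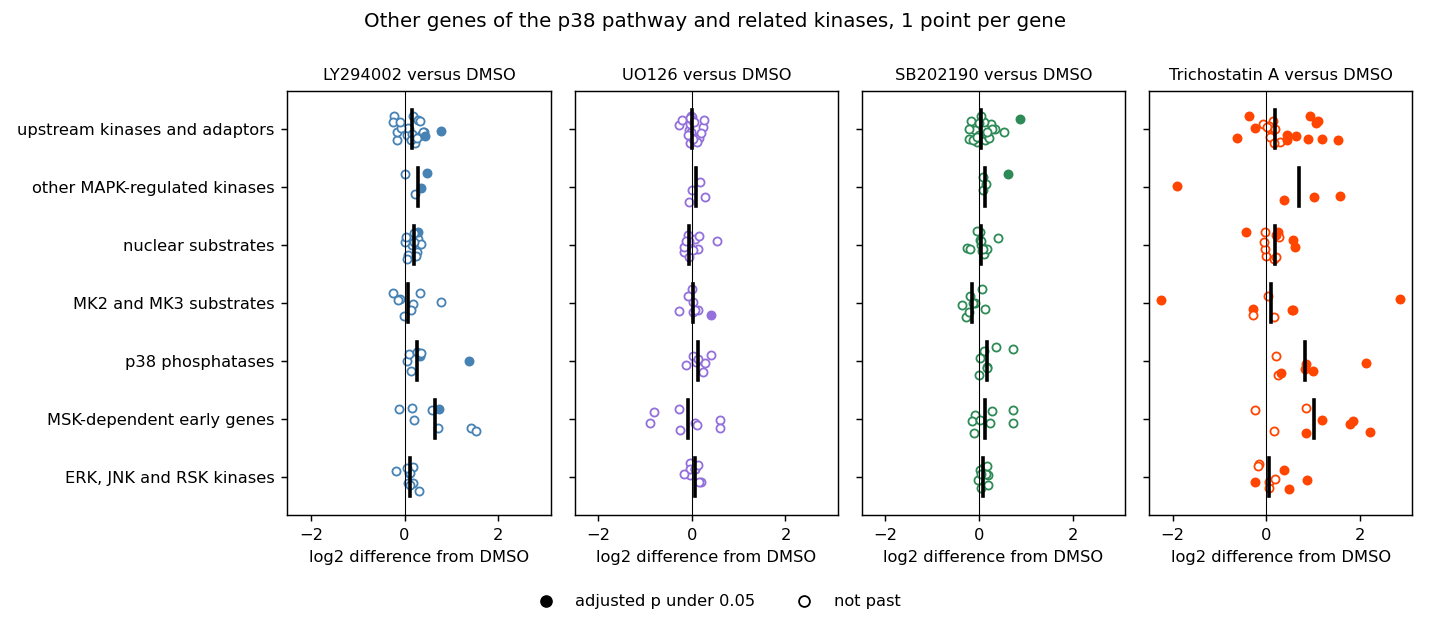
Log2 difference from DMSO (x axis) of the 69 listed pathway genes, 1 point per gene, by role (rows) and inhibitor (panels); filled points have an adjusted p under 0.05 and black bars are the median of the list. Trichostatin A has 31 filled points to the right of 0 and 8 to the left, from Lsp1 at -2.25 to Hspb1 at 2.87, and UO126 has 1.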

How the data were processed

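The deposited table held log2 signals that the authors had normalised, 1 value per probe set and array; whether GC-RMA or RMAExpress made them is not settled, and no genome build is given in the sources used here. The 64 control probe sets of the array were removed from the 45101 in the table. Symbols came from the platform annotation (34945 probe sets with 1 symbol, 932 with several, 9160 with none). Columns of signal per array were assigned by title.

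A model with a mean for each treatment was fitted to the 15 arrays (limma 3.58.1, R 4.3.3, 10 residual degrees of freedom), on probe sets with a mean signal of at least 50 in either group, with Benjamini-Hochberg adjustment. A pathway gene was its brightest unshared probe set, and up to 3 called genes per list with the largest differences were named. Members and lists were chosen with earlier results of these data known.

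Deviations from the treatment means were correlated between same-numbered arrays of DMSO and of each inhibitor. The correlations were 0.769, 0.405 and 0.627 for LY294002 and 0.718, 0.540 and 0.328 for UO126. They were 0.237, 0.302 and 0.325 for SB202190 and 0.239, 0.474 and 0.0284 for Trichostatin A. The study's methods state that RNA of DMSO and LY294002 cultures came from 3 independent experiments, without linking these to array numbers. No cut-off for pairing was set, and whether the numbers pair the arrays is not settled. The main model had no block, and an alternative added the replicate number as a block over all 15 arrays. Other alternatives changed the filter, normalisation, prior and arrays. With 3 against 3 arrays, an exact permutation test of a single value cannot give a two-sided p under 0.1. The number of arrays limits the precision. Promoters were taken from RefSeq.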

Additional observations from a re-analysis of the deposited data

How the results depend on the processing

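Counts of members called were recomputed under every alternative. In SB202190 the count of 1 became 3 with the replicate block, 2 with quantile normalisation and 2 by the 1.4-fold threshold, and 0 to 1 when arrays were left out, with 0 only without replicate 2 of every treatment. In LY294002 it was 1 to 2 when arrays were left out, with 1 only without replicate 2 of every treatment, and 3 with quantile normalisation, which added Mapkapk3 (adjusted p = 0.0393). In UO126 it was 0 under every alternative, and in Trichostatin A 10 to 12. The F test called 12, and 3 without the Trichostatin A arrays, where that treatment is no longer compared. The 38 calls between inhibitors became 47 with the replicate block and 30 to 38 when arrays were left out; without the Trichostatin A arrays 3 of the 6 pairs remain, so no count was made.

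Of 15 member calls against DMSO, 9 held under all alternatives and 6 were lost under at least 1, and of 61 differences not called 3 were gained. No called difference changed sign. The replicate block was fitted over all arrays, those of Trichostatin A among them. Same-numbered arrays of Trichostatin A and DMSO correlated at 0.239, 0.474 and 0.0284, and with the block 12 members were called in Trichostatin A. In LY294002 and UO126 the block left the member counts at 2 and 0.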
